A study of Oryza sativa with 20 samples.

Results

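The circadian clock genes of rice were followed in stem bases of seedlings at 8 h and at 4 h after dexamethasone or mock treatment. The genes were LHY (also CCA1), GI, PRR1, PRR37, PRR73 and PRR95. They were matched by name and locus in the array's annotation, and the group was chosen with earlier results of these data known. These 6 genes had 9 probe sets of the 57258 probe sets that were not controls, among 17905 genes named on the array. LHY, PRR37 and PRR73 had 2 probe sets each, of which the brighter is called the main probe set, and GI, PRR1 and PRR95 had 1 each. Tests were limited to probe sets brighter than the array median on 3 or more of the 20 arrays, which 8 of the 9 were. The second LHY probe set read 0.3 to 1.8 signal units on all arrays, was never above the median, and was not tested.

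The plant clock is a loop of transcription factors that repress each other in turn over the day. LHY is a MYB factor whose transcript peaks around dawn and which represses genes of the evening. The pseudo-response regulators PRR73, PRR37 and PRR95 follow through the day and repress LHY, and PRR1 is the rice counterpart of the evening regulator TOC1 of Arabidopsis. GI, a large nuclear and cytosolic protein, is expressed late in the day and passes clock timing on to flowering genes. PRR37 is also a heading date gene that delays flowering in long days, and PCL1, the rice counterpart of LUX of Arabidopsis, belongs to the evening complex that represses day genes at night.

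All plants were crl1 (crown rootless 1) mutants of cultivar Taichung 65. Their own gene for CRL1, the LOB-domain factor that crown root formation needs, was thus defective in every group. The 3 CRL1 lines were independent transformants of that mutant with the plasmid pINDEX2-CRL1, from which dexamethasone switches on CRL1. The 2 control lines were the same mutant with the empty pINDEX2 plasmid, represented by 1 transformed line, and the untransformed mutant. Each line gave 1 array in each of 4 conditions: 8 h and 4 h after 10 µM dexamethasone, and 8 h and 4 h after mock treatment with ethanol at 0.5‰. Transgenic lines were homozygous T2 lines with a single insertion locus. Seedlings were 8 days old, had been moved to liquid medium at 7 days, and grew at 26 °C with 12 h of light and 12 h of dark. Each RNA pooled 20 stem bases. The hour of the day at treatment or harvest is not given in the sources used here. Hour of day and hours after treatment therefore cannot be told apart between 8 h and 4 h arrays.

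Array median signals were 10.1 to 15.5. The 4 arrays of the untransformed line had medians of 12.5 to 15.5, against 10.1 to 12.5 on the other 16, although all 20 arrays had the same trimmed mean. Their correlation with arrays of other lines (median Pearson r over probe sets) was 0.915 to 0.945, against 0.926 to 0.966 for the rest. These 4 arrays also went against the other lines in several clock genes, so the changes with time are given with and without that line. The line was thus singled out in part by the values of the genes tested. This favoured the calls made without that line, which are therefore descriptions. The labels give the untransformed line the same hours after treatment as the others. Whether it was treated and harvested at the same hour of day is not given in the sources used here, and whether its time labels are right was not tested. Means over 5 lines take those labels as given. The part of the higher array medians in those differences was not tested. The meristem marker OSH1 read 439.6 to 1018 on all arrays, and all 4 shoot meristem markers looked up passed the filter on dim probe sets. Of 3 green leaf markers, 11 root markers and 4 vascular markers tested, none was called between times. Of all 32836 probe sets tested, 228 (0.694%) were called after dexamethasone and 13 (0.0396%) after mock treatment. At these shares no call is expected among so few genes, so this does not show an unchanged make-up of tissues.

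**Figure D1:**
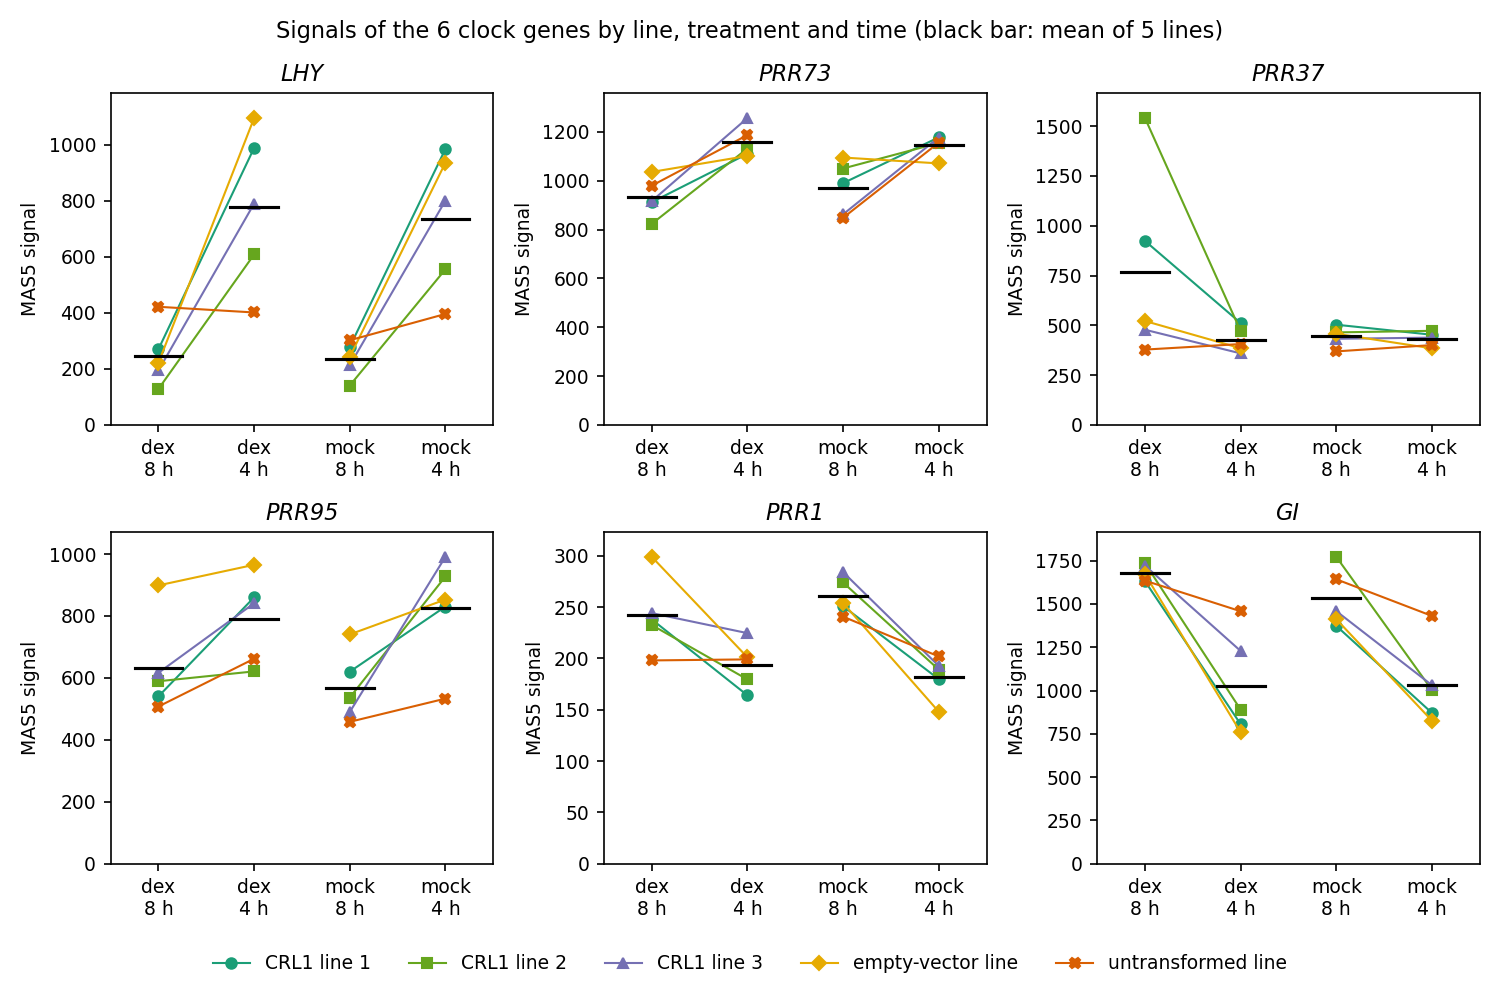
MAS5 signal (linear, arbitrary units) of the main probe set of each clock gene on all 20 arrays, by treatment and time. Points are single arrays joined by line between 8 h and 4 h, and black bars are means of the 5 lines. LHY lay at 129 to 279 at 8 h and at 555 to 1095 at 4 h in the transformed lines, while the untransformed line stayed between 302 and 422 at both times.

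LHY had the largest change between times among the 6 genes after either treatment. After dexamethasone its signals at 8 h were 270.5, 129 and 195 in CRL1 lines 1, 2 and 3, 222 in the empty-vector line and 422 in the untransformed line. The 4 h signals were 989, 608.5 and 789.9 in CRL1 lines 1, 2 and 3, 1095 in the empty-vector line and 401 in the untransformed line. The 4 transformed lines were thus all low at 8 h and all high at 4 h, and only the untransformed line made the groups overlap. In the transformed lines the 8 h signal was 0.203 to 0.274 of the 4 h signal. Over all 5 lines LHY fell by 1.66 ± 0.32 on the log2 scale (SE; 95% interval -2.35 to -0.98; limma, adjusted p = 0.0274; n = 5 arrays a time), and it was lower at 8 h in 4 of 5 lines. Log2 values were taken of signal plus 1.7. Called here means an adjusted p below 0.05 over all probe sets tested, which 228 of 32836 probe sets (0.694%) reached in this comparison. LHY was the only clock gene of the 6 among them. Without the untransformed line the change was -2.099 ± 0.27 (adjusted p = 0.00243). The call was lost when any CRL1 line was left out (adjusted p = 0.2, 0.232 and 0.305 without lines 1, 2 and 3) and when only the arrays compared were fitted (adjusted p = 0.147). The adjusted p ranged from 0.00243 to 0.305 over 12 alternatives, and 8 of them kept the call. In whole stem bases, fewer cells that express a gene and less RNA of it per cell cannot be told apart.

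Mock-treated plants gave nearly the same LHY signals. At 8 h they were 279, 141 and 213 in CRL1 lines 1, 2 and 3, 243 in the empty-vector line and 302 in the untransformed line. At 4 h they were 985, 555 and 801 in the CRL1 lines, 936 in the empty-vector line and 396 in the untransformed line. All 5 arrays at 8 h lay below all 5 at 4 h, as did those of 0.615% of all probe sets tested. The 4 transformed lines again had similar folds, with 8 h signals at 0.253 to 0.283 of the 4 h signals. The mean log2 change was -1.60 ± 0.32 (95% interval -2.28 to -0.92) and missed the threshold (limma, adjusted p = 0.15). Only 13 of 32836 probe sets (0.0396%) were called in this comparison, none of them a probe set of the 6 genes. Arrays of a line are paired, and blocking on line brought LHY past the threshold (adjusted p = 0.0196), as did leaving out the untransformed line (log2 change -1.91 ± 0.27, adjusted p = 0.00872). Over 12 alternatives the adjusted p ranged from 0.00872 to 1, with 2 calls.

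GI was higher at 8 h than at 4 h in all 5 lines after both treatments. After dexamethasone its signals at 8 h were 1631.5, 1735 and 1721 in CRL1 lines 1, 2 and 3, 1672 in the empty-vector line and 1635 in the untransformed line. At 4 h they were 805.5, 889.6 and 1228.5 in the CRL1 lines, 759 in the empty-vector line and 1458 in the untransformed line. The 8 h arrays formed a tight group (SD 47.9) above every 4 h array (SD 303), as in 1.05% of all probe sets tested. The highest 4 h array was that of the untransformed line, at a level close to its own 8 h array. The log2 change was 0.75 ± 0.18 (95% interval 0.38 to 1.13; limma, adjusted p = 0.0605). It passed the test when line was a block (adjusted p = 0.00851), and when the untransformed line (0.90 ± 0.13, adjusted p = 0.00496) or the empty-vector line (0.66, adjusted p = 0.0301) was left out. It also passed when more dim probe sets were filtered out (adjusted p = 0.046). The range over 12 alternatives was 0.00496 to 0.425.

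In mock arrays GI read 1373.5, 1772 and 1459 at 8 h in CRL1 lines 1, 2 and 3, 1412 in the empty-vector line and 1642.5 in the untransformed line. The 4 h values were 871, 1003 and 1031 in the CRL1 lines, 826 in the empty-vector line and 1431 in the untransformed line. The only overlap between the times came from the 4 h array of the untransformed line, which exceeded the 8 h arrays of CRL1 line 1 and of the empty-vector line. The log2 change was 0.59 ± 0.18 (adjusted p = 0.622), and 0.69 ± 0.13 without the untransformed line (adjusted p = 0.0679). None of 12 alternatives called it (0.0679 to 1). GI was higher at 8 h in all 10 pairs of arrays, which held for 1.11% of probe sets tested.

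PRR1, the counterpart of TOC1, was higher at 8 h in 9 of 10 pairs. In mock arrays it read 251, 274 and 284 at 8 h in CRL1 lines 1, 2 and 3, 254 in the empty-vector line and 241 in the untransformed line. At 4 h it read 179.9, 189 and 193 in the CRL1 lines, 148 in the empty-vector line and 202 in the untransformed line. The times did not overlap, which held with the 8 h arrays on top for 0.63% of probe sets. The log2 change was 0.52 ± 0.12 and was not called (limma, adjusted p = 0.268; 0.0521 to 1 over 12 alternatives). After dexamethasone the 8 h signals were 238, 233, 244, 299 and 198 in CRL1 lines 1, 2 and 3, the empty-vector line and the untransformed line. The 4 h signals in the same order were 164, 179.6, 225, 201 and 199. The untransformed line did not move, CRL1 line 3 moved little, and the log2 change over all lines was 0.32 ± 0.12 (adjusted p = 0.246). Without the untransformed line the PRR1 changes were 0.40 ± 0.11 after dexamethasone and 0.58 ± 0.11 after mock treatment (adjusted p = 0.0737 and 0.0521).

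**Figure D2:**
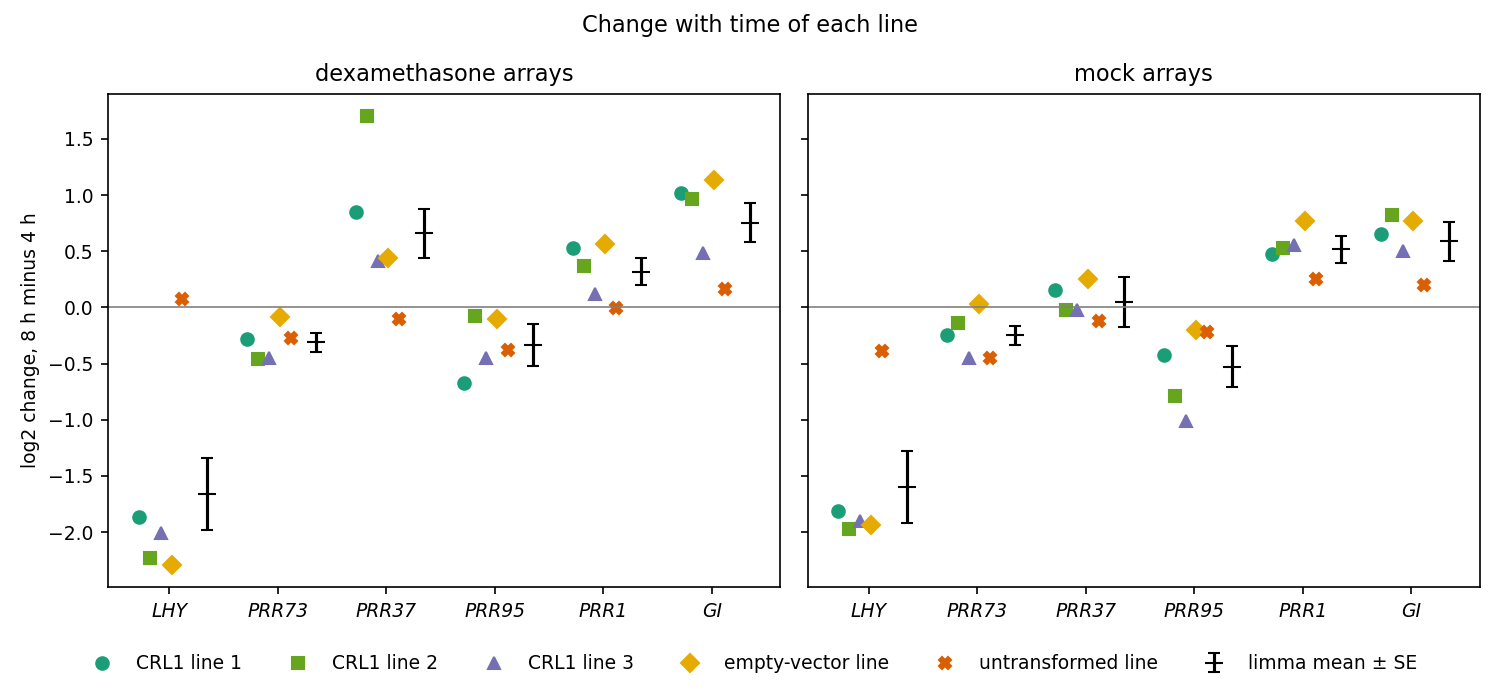
Log2 change of each clock gene's main probe set, 8 h minus 4 h, for each line (coloured symbols) after dexamethasone (left) and mock treatment (right), with the limma mean over 5 lines and its SE in black. LHY changed by -2.29 to -1.82 in the 4 transformed lines and by 0.07 and -0.39 in the untransformed line, and PRR37 reached 1.70 in CRL1 line 2 after dexamethasone.

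Among the pseudo-response regulators of the day, PRR95 was lower at 8 h in all 10 pairs, which held for 1.06% of probe sets. In mock arrays it read 620.0, 536 and 489.9 at 8 h in CRL1 lines 1, 2 and 3, 740.4 in the empty-vector line and 458 in the untransformed line. The 4 h values were 830.4, 928 and 991 in the CRL1 lines, 853 in the empty-vector line and 533 in the untransformed line. The CRL1 lines had the widest gaps between times, while the untransformed line was low at both times, so that the groups overlapped. The log2 change was -0.53 ± 0.18 (limma, adjusted p = 0.848). Blocking on line gave a call (adjusted p = 0.0487), the only one among 12 alternatives, whose adjusted p reached 1. After dexamethasone the 8 h signals of PRR95 were 540.4, 589 and 616.5 in the CRL1 lines, 899 in the empty-vector line and 508 in the untransformed line. The 4 h signals were 860.2, 621 and 841 in the CRL1 lines, 965 in the empty-vector line and 662 in the untransformed line. CRL1 line 2 hardly moved (log2 change -0.08), and the mean change was -0.34 ± 0.18 (adjusted p = 0.45). Leaving out the untransformed line gave PRR95 changes of -0.32 ± 0.12 after dexamethasone and -0.61 ± 0.12 after mock treatment (adjusted p = 0.174 and 0.0925).

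PRR73, a relative of PRR7 of Arabidopsis, had changes of at most 0.46 on the log2 scale in any line in its main probe set. After dexamethasone that probe set read 912, 823 and 916.5 at 8 h in CRL1 lines 1, 2 and 3, 1036 in the empty-vector line and 979.6 in the untransformed line. The 4 h signals were 1109.9, 1132 and 1257 in the CRL1 lines, 1101.5 in the empty-vector line and 1187 in the untransformed line. All 8 h arrays lay below all 4 h arrays, as in 0.603% of probe sets, and the untransformed line moved with the others. The log2 change was -0.31 ± 0.08 (limma, adjusted p = 0.105). In mock arrays it was -0.25 ± 0.08 (adjusted p = 0.799), with the 8 h arrays at 848 to 1095 and the 4 h arrays at 1071 to 1177, and only the empty-vector line was not lower at 8 h. Over the 4 transformed lines the changes were -0.32 ± 0.09 after dexamethasone and -0.20 ± 0.09 after mock treatment (adjusted p = 0.0764 and 0.824). The second PRR73 probe set, at 73.9 to 178 signal units over all arrays, was higher at 8 h in 3 lines and lower in 2 after each treatment. Its log2 changes were 0.17 ± 0.19 after dexamethasone and 0.10 ± 0.19 after mock treatment (adjusted p = 0.762 and 0.999), so it showed no direction. Over the 4 transformed lines they were 0.004 ± 0.23 and 0.055 ± 0.23.

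PRR37 showed no common change with time in mock arrays. Its main probe set read 503, 464.5, 432, 458 and 369 at 8 h in CRL1 lines 1, 2 and 3, the empty-vector line and the untransformed line, against 453, 472.5, 438, 384 and 401 at 4 h. The log2 change was 0.05 ± 0.22 (95% interval -0.42 to 0.51). After dexamethasone it was 0.66 ± 0.22 (limma, adjusted p = 0.189), of which CRL1 line 2 had 1.70 and CRL1 line 1 had 0.85. These rest on the 8 h dexamethasone arrays described below. The second probe set gave 0.94 ± 0.43 after dexamethasone (adjusted p = 0.356) and -0.11 ± 0.43 after mock treatment (adjusted p = 0.999). Without the untransformed line the main probe set gave 0.85 ± 0.26 and 0.09 ± 0.26, and the second 1.33 ± 0.44 and 0.21 ± 0.44, after dexamethasone and mock treatment in that order (adjusted p of at least 0.109).

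Over the main probe sets of the 6 genes the median size of the log2 change with time was 0.50 after dexamethasone, against 0.18 over all probe sets tested. After mock treatment it was 0.52, against 0.13 over all. Brightness was not matched in these comparisons. The changes went both ways, so the signed medians were 0.00 and -0.10, against 0.02 over all probe sets after either treatment. The order of the 4 conditions in LHY was mock 8 h, dexamethasone 8 h, mock 4 h and dexamethasone 4 h by mean signal (235, 247.5, 734.5 and 777). The order in GI was dexamethasone 4 h, mock 4 h, mock 8 h and dexamethasone 8 h (1028, 1032, 1532 and 1679). In both genes conditions of the same hour were neighbours and differed by less than the larger of their SDs.

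A difference between treatments in the change with time was not shown for any of the 6 genes. The difference, dexamethasone minus mock, was -0.06 ± 0.45 for LHY (95% interval -1.02 to 0.90) and 0.16 ± 0.25 for GI (-0.36 to 0.69). It was largest for PRR37, at 0.61 ± 0.31 in its main and 1.06 ± 0.61 in its second probe set, with intervals reaching 1.27 and 2.36 (limma, adjusted p = 1 for each of these). Across the array 2 probe sets (0.00609%) were called, both higher. For LHY, differences anywhere within its interval remain possible.

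A difference in the change with time between CRL1 lines and control lines was not called for any of the 6 genes. For LHY the difference, CRL1 minus control lines, was -0.92 ± 0.65 after dexamethasone and -0.73 ± 0.65 after mock treatment (limma, adjusted p = 1 each). These values rest on the untransformed line. With the empty-vector line as the only control they were 0.26 ± 0.62 and 0.04 ± 0.62, assuming that this single line varies like the other groups. The second PRR73 probe set had -0.90 ± 0.38 after dexamethasone, the only one of the members' intervals that left out 0 (-1.71 to -0.09; limma, adjusted p = 0.975). PRR37 had 0.82 ± 0.45 in its main and 0.99 ± 0.89 in its second probe set after dexamethasone (adjusted p = 1 each). Background calls were 2 probe sets (0.00609%) after dexamethasone and 0 (0%) after mock treatment.

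PCL1 of the evening complex was the only gene of a list of other clock components with a matching name on the array, and it moved further than any of the 6 genes. After dexamethasone it read 1336, 1336 and 1244 at 8 h in CRL1 lines 1, 2 and 3, 1601 in the empty-vector line and 788 in the untransformed line. The 4 h signals were 40.6, 64.1 and 70.6 in the CRL1 lines, 58.0 in the empty-vector line and 886.5 in the untransformed line. The transformed lines were 17.6 to 32.9 times higher at 8 h, and the untransformed line was high at both times. That line was singled out in part by these values, so the fits of PCL1 without it are descriptions. PCL1 rose by 3.60 ± 0.71 on the log2 scale over all lines (limma, adjusted p = 0.0316). Without the untransformed line the rise was 4.55 ± 0.20 (adjusted p = 3.59e-07). In mock arrays the transformed lines read 1359 to 1944 at 8 h, against 40.5 to 84.2 at 4 h, while the untransformed line read 1066 at 8 h and 1008 at 4 h. The mock change of 3.86 ± 0.71 was not called over all lines (adjusted p = 0.0868), but was when blocked on line (adjusted p = 0.0246) and when the untransformed line was left out (4.80 ± 0.20, adjusted p = 1.84e-07). The adjusted p ranged from 3.59e-07 to 0.344 over 12 alternatives after dexamethasone and from 1.84e-07 to 1 after mock treatment.

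In the untransformed line the 4 h arrays therefore held PCL1 and GI near their 8 h levels and LHY, at 401 after dexamethasone and 396 after mock treatment, below all 4 h arrays of the transformed lines. The log2 change of PRR73 in that line was -0.28 after dexamethasone and -0.45 after mock treatment. Over all probe sets tested, the change with time of the untransformed line correlated with the mean change of the other lines at 0.03 after dexamethasone. The empty-vector line, the other control, had 0.15. The CRL1 lines, which all carry the transgene that dexamethasone switches on, had 0.31 to 0.33. After mock treatment the value of the untransformed line was 0.13, within the 0.09 to 0.20 of the others.

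Genes that carry light signals in or clock timing out were looked up by name. Of 6 photoreceptor genes and regulators tested (PHYA, PhyB, phyC, PHOT1A, PHOT2 and SE5) none was called between times. Their median log2 changes were -0.04 after dexamethasone and 0.06 after mock treatment. Over all probe sets tested, 0.694% were called after dexamethasone and 0.0396% after mock treatment. At these shares no call is expected in lists this short, here and below, so the counts do not show an absence of change. Of 13 photoperiod and flowering genes found on the array 10 were tested and none was called, with medians of 0.15 after dexamethasone and 0.04 after mock treatment. The florigen gene Hd3a and the flowering regulator Hd1, which act downstream of GI in rice, were too dim to be tested, at 1.4 to 16.8 and 0.4 to 8.0 signal units. Of 4 genes for light harvesting or the small subunit of Rubisco 3 were tested. None was called, although the chlorophyll-binding gene CAB2R was bright at 6454 to 9229 on all arrays, with log2 changes of 0.18 ± 0.11 after dexamethasone and 0.12 ± 0.11 after mock treatment.

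**Figure D3:**
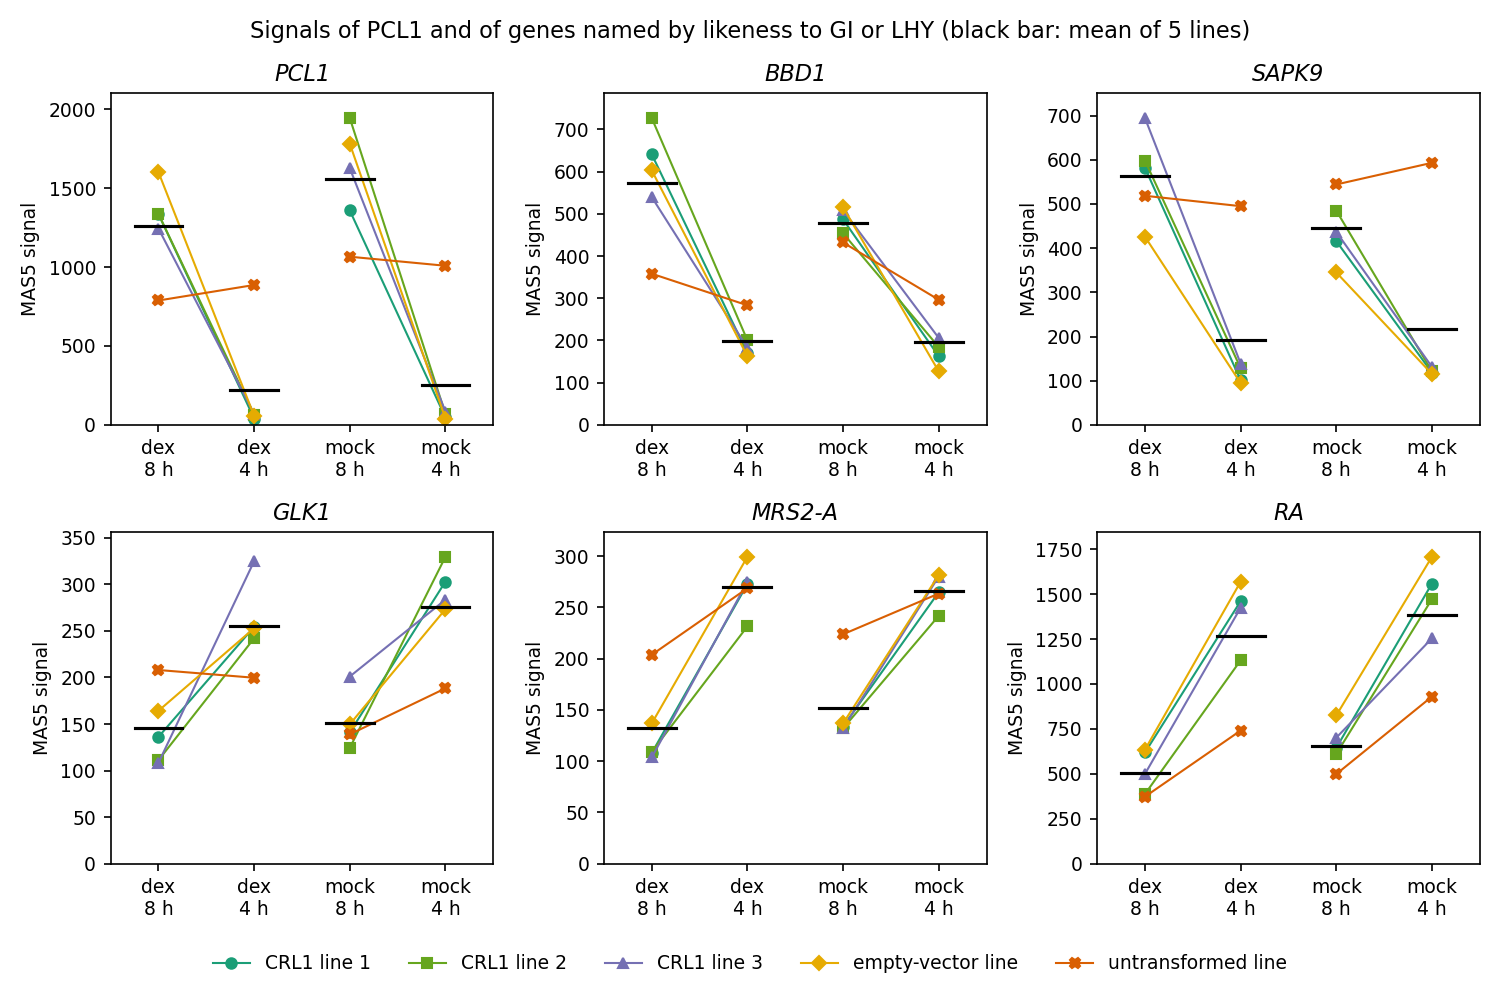
MAS5 signal (linear, arbitrary units) of PCL1 and of genes whose pattern was most like, or most opposite to, that of GI or LHY, on all 20 arrays. Points are single arrays joined by line between 8 h and 4 h, and black bars are means of 5 lines. PCL1 lay at 40.5 to 84.2 at 4 h in the transformed lines and at 886.5 and 1008 in the untransformed line, and SAPK9 had the same split.

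The genes most like each clock gene were taken by Pearson correlation of log2 signals over the 20 arrays, among 2849 tested probe sets with a named gene. The arrays share lines and times, so these values are descriptions. The genes were picked by their pattern over the same arrays on which they were then tested. The picking therefore favoured their calls, which are descriptions too. SAPK9, a protein kinase of the SnRK2 family, was the most like GI (r = 0.948), ahead of PCL1 (0.93) and BBD1, a bifunctional nuclease gene (0.894). The most opposite to GI was RA, Rubisco activase (-0.902). SAPK9 read 426 to 694 at 8 h after dexamethasone, against 94.6 to 495 at 4 h, where the highest array was that of the untransformed line. It rose by 1.85 ± 0.39 (limma, adjusted p = 0.0445), a call lost in 6 of 12 alternatives.

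LHY was most like GLK1, a regulator of chloroplast development (0.886), MRS2-A, a magnesium transporter gene (0.885), and HMG3 (0.881), and most opposite to BBD1 (-0.94). BBD1 and MRS2-A were, of the genes named by likeness, those called after both treatments, in tests that their picking favoured. BBD1 rose by 1.504 ± 0.21 after dexamethasone (limma, adjusted p = 0.00869) and by 1.34 ± 0.21 after mock treatment (adjusted p = 0.0291). Its 8 h arrays read 358 to 727 after dexamethasone and 432 to 516 after mock treatment. The 4 h arrays read 163 to 283 and 127 to 297 in the same order, with no overlap. Such a separation, with the 8 h arrays on top, held for 1.05% and 0.63% of probe sets tested. BBD1 was picked as most opposite to LHY, which itself differed between times, so its picking favoured this separation. MRS2-A fell by 1.06 ± 0.13 (adjusted p = 0.00686) after dexamethasone and by 0.84 ± 0.13 (adjusted p = 0.0291) after mock treatment. Each of these 4 calls was lost when any CRL1 line was left out and when only the arrays compared were fitted. GLK1, HMG3 and RA were called lower after dexamethasone (-0.83, -0.92 and -1.31 on the log2 scale), and each of these calls was likewise lost when any CRL1 line was left out and when only the arrays compared were fitted (adjusted p up to 0.231, 0.212 and 0.227).

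PRR1 was most like HSF03, a heat shock factor gene (0.89), BBD1 (0.84) and PCL1 (0.815), and most opposite to LHY (-0.81). The genes nearest to PRR37 were PP2C36, a protein phosphatase gene (0.943), FTSH4, an FtsH protease gene (0.942), and POLD1, the catalytic subunit of DNA polymerase delta (0.929), with UGHY at the opposite end (-0.87). None of these 4 was called between times. PRR37, PP2C36, FTSH4 and POLD1 each had their highest signals on the arrays of CRL1 lines 1 and 2 at 8 h after dexamethasone. How far their correlations rest on those arrays was not tested. PRR73 was most like CIPK19 (0.793), HMG3 (0.775) and the aquaporin gene PIP2-4 (0.769), and most opposite to HPT1 (-0.805). PRR95 was most like C3H54 (0.876), the carotenoid epoxidase gene ABA1 (0.854) and CHLH, a subunit of magnesium chelatase (0.825), and most opposite to SAPK9 (-0.783).

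Between the clock genes, LHY and GI correlated at -0.896 over the 20 arrays. Within the 10 arrays at 4 h, where the untransformed line had low LHY and high GI, the value was -0.841, and within the 10 arrays at 8 h it was -0.406. LHY and PRR1 correlated at -0.81 over all arrays, at -0.361 within 4 h and at -0.47 within 8 h. The 2 PRR37 probe sets correlated at 0.888 over all arrays, at 0.655 within 4 h and at 0.897 within 8 h.

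The study asked which genes CRL1 activates early, and that comparison, dexamethasone against mock in the CRL1 lines, called no clock gene. At 4 h the log2 changes of all 8 tested probe sets lay between -0.25 and 0.11, and none was called (limma, adjusted p = 1 for each), beside 143 of 32836 probe sets (0.435%). The median size over the 6 genes was 0.02, against 0.16 over all probe sets. The main probe sets of the 6 genes lay above the 78th percentile of signals on every array. Brightness was not matched in this comparison, so the smaller size does not show that these genes were unusually steady. At 8 h 2095 probe sets (6.38%) were called and again none of the 8. At these shares an absence of calls among so few probe sets does not show an absence of change. Apart from PRR37 the changes at 8 h lay between -0.19 and 0.15. The widest of their intervals was that of LHY, from -0.98 to 0.78, so LHY changes anywhere within it remain possible.

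PRR37 was the gene that moved with dexamethasone at 8 h in part of the CRL1 lines. Its main probe set read 924 and 1541 after dexamethasone in CRL1 lines 1 and 2, against 503 and 464.5 after mock treatment. CRL1 line 3 read 478, against 432 after mock treatment. The empty-vector line read 522, against 458 after mock treatment, and the untransformed line 378, against 369. The next highest of the 20 arrays was the 522 of the empty-vector line. The second probe set followed, with 97.8, 202 and 33.8 in CRL1 lines 1, 2 and 3 after dexamethasone, against 23.8, 59.4 and 27.0 after mock treatment. Its control arrays read 65.6 and 21.1 after dexamethasone in the empty-vector line and the untransformed line, against 44.9 and 14.5 after mock treatment. CRL1 line 3 thus moved no more than the empty-vector line in either probe set.

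**Figure D4:**
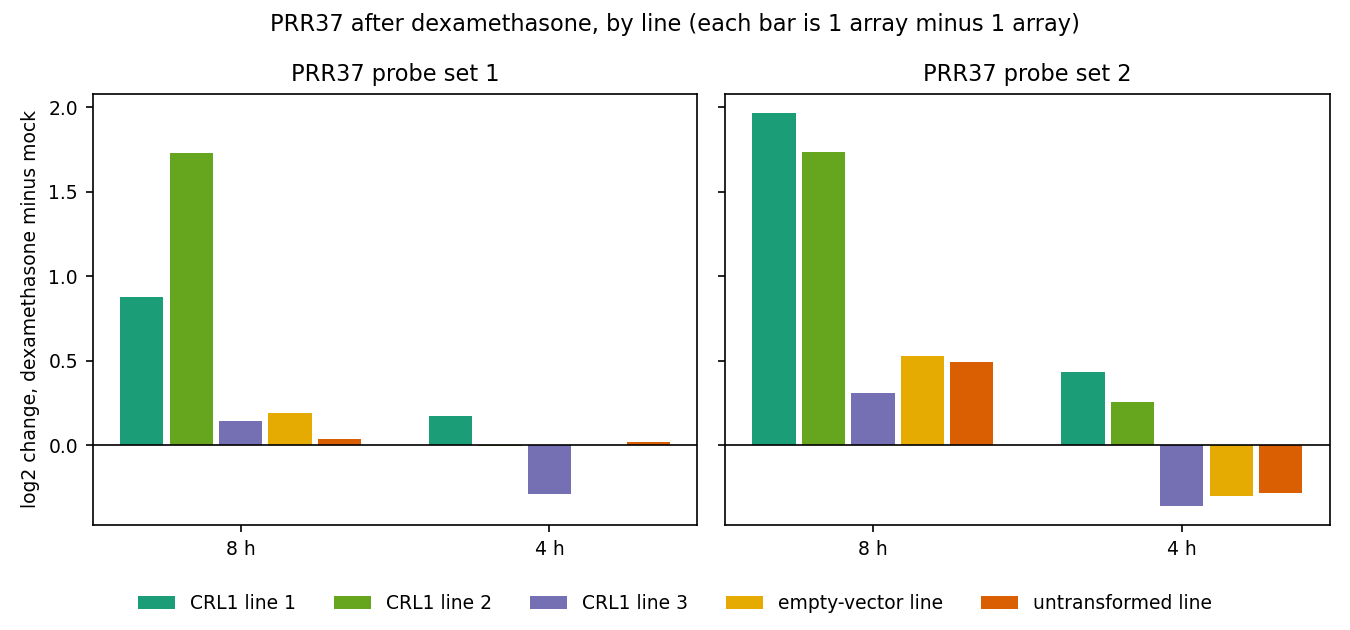
Log2 change of PRR37, dexamethasone minus mock, in each line at 8 h and at 4 h, for its main (left) and second probe set (right). Each bar is 1 array minus 1 array of the same line, so it has no error of its own. At 8 h CRL1 lines 1 and 2 stand at 0.87 and 1.73 in the main probe set, against 0.04 to 0.19 in CRL1 line 3 and the control lines.

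Over the 3 CRL1 lines the log2 change of PRR37 at 8 h was 0.91 ± 0.28 (95% interval 0.31 to 1.51), which missed the threshold (limma, adjusted p = 0.0693). It was called when blocked on line (adjusted p = 0.0194) and when CRL1 line 3 was left out (1.30, adjusted p = 0.00927), and in no other of 12 alternatives. Without CRL1 line 2 it was 0.51 ± 0.28 (adjusted p = 0.576), the highest adjusted p among them. The second probe set gave 1.34 ± 0.56 (adjusted p = 0.207). In the control lines the changes were 0.11 ± 0.35 and 0.51 ± 0.69 (adjusted p = 1 each). The difference itself, CRL1 minus control lines, was 0.80 ± 0.45 in the main and 0.82 ± 0.89 in the second probe set (adjusted p = 0.626 and 0.883), where 233 probe sets (0.71%) were called. The PRR37 response was therefore not shown to differ between CRL1 lines and control lines. At 4 h the difference was not called for any clock gene, beside 3 probe sets (0.00914%) in all.

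FTSH4, the protease gene that resembled PRR37, rose by 1.34 ± 0.30 at 8 h in the CRL1 lines (limma, adjusted p = 0.0136), with its highest dexamethasone array at 939 signal units. That call was lost without CRL1 line 1 or 2 and with only the arrays compared in the fit. PP2C36 had a log2 change of 1.43 ± 0.50 (adjusted p = 0.113), which was called when blocked on line or when CRL1 line 3 was left out. Both genes were picked by likeness to PRR37 over these same arrays, which favoured them in this comparison. Of the flowering genes MADS14, a floral identity factor, rose by 0.80 ± 0.23 at 8 h in the CRL1 lines (adjusted p = 0.0471). Its probe set read 10.0 to 22.0 over all arrays, and the call was lost in 6 of 11 alternatives.

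In the control lines no clock gene was called after dexamethasone. Log2 changes lay between -0.29 and 0.24 at 4 h and between -0.02 and 0.51 at 8 h. Across the array 0 probe sets (0%) were called at either time by limma, and 838 and 781 of 32836 probe sets had an unadjusted p below 0.05 at 8 h and 4 h. Both counts are below the share of 0.05 that chance alone would give, so they are no sign of a response. Nor do they show that there was none. Between CRL1 lines and control lines after mock treatment, with line as a random block, the log2 differences lay between -0.11 and 0.19. None was called (limma, adjusted p of at least 0.769), beside 1 probe set (0.00305%) in all. PRR95 was called higher in the CRL1 lines, by 0.51 ± 0.15, when the empty-vector line was left out and the untransformed line was the only control (adjusted p = 0.0395). That fit called 3940 of 32836 probe sets, against the 1 with both control lines.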

How the data were processed

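RNA of 20 samples was hybridised to Affymetrix rice arrays, 1 array per line, treatment and time. The authors' deposited values are linear MAS5 intensities from Expression Console, per the submitters' processing notes; its version is not given in the sources used here. Every array had the same 2% trimmed mean as deposited, so scaling had been done. No 2 arrays were identical. No scan dates were given, and precision is limited by the number of arrays.

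Of 57381 probe sets 123 controls were left out. Platform annotation gave the names, which were brought up to date in RefSeq (ASM3414082v1) by gene number: 22436 probe sets had 1 gene, 95 several and 34727 none listed. No coordinates are printed, since the arrays' genome build is not given in the sources used here. A planned search of promoters for clock motifs was not run, since no promoter sequences were used here. CRL1 itself was matched to no probe set by name, so the switch was not checked on the targeted gene.

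Values were log2(signal + 1.7), with the 20th percentile of signals as offset, which understates the fold changes of dim transcripts. Probe sets above the array median on at least 3 arrays were tested (32836) with limma 3.58.1 in R 4.3.3, using 8 group means, 12 residual degrees of freedom, empirical Bayes variances with a trend, and Benjamini-Hochberg adjusted p below 0.05 as a call. Changes with time are means over the 5 lines. CRL1 and control lines after mock treatment were compared with line as a random block (correlation 0.228). Errors are SEs for log2 changes and SDs for signals. Simulated arrays were used to check the test. Arrays of a line came from the same transgenic line by the labels, so they are paired. Arrays' deviations from their group mean had correlations of 0.021 to 0.215 within a CRL1 line, against -0.197 to 0.047 between CRL1 lines. The means came from the same arrays, so the values between lines are not independent of those within a line. The value with line as a fixed block (9 residual degrees of freedom) is given where it changed a call. The labels do not say whether the arrays of a line came from separate cultures, so p-values measure the spread between lines.

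The members, lists and tests were chosen with earlier results of these data known. Named genes were all probe sets of the 6 members, list members called between times, and for each member the 3 most and the 1 least correlated named genes; FTSH4, PP2C36 and MADS14 in the dexamethasone comparison, and the list members OSH1, PHYA, PhyB, phyC, PHOT1A, PHOT2, SE5, Hd3a, Hd1 and CAB2R, fall outside this rule and were chosen after their values were seen. The lists were other clock components, photoreceptors, photoperiod and flowering outputs, light harvesting, and markers of shoot meristem, green leaf, root and vascular tissue; the name PT1 among the root markers matched several genes. Alternatives were no offset or an offset of 11.8 (the median signal), quantile normalization, no filter or one at the 75th percentile, line as a block, leaving out each line, and fitting only the groups compared. Python 3.11.15 with numpy 2.4.6, pandas 2.3.3 and matplotlib 3.10.9 made the tables and plots.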

Additional observations from a re-analysis of the deposited data

Results flagged for a closer look

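In groups of 5 lines, 11 of 72 groups examined had 1 line far from the other 4 by Dixon's criterion (gap over range above 0.71). Chance flags about 1 in 20 independent groups of like lines. These groups share arrays and genes and mix CRL1 lines with control lines, so their count cannot be set against that share. Most of the flagged groups concerned the untransformed line. Its LHY change between times was 0.0709 after dexamethasone, against -2.29 to -1.86 in the other lines, and -0.39 after mock treatment, against -1.97 to -1.82. Its PCL1 change was -0.17 after dexamethasone, against 4.11 to 4.98, and 0.0796 after mock treatment, against 4.24 to 5.40. Its 4 h PCL1 signal was 886.5 after dexamethasone, against 40.6 to 70.6, and 1008 after mock treatment, against 40.5 to 84.2. At 8 h its LHY was 0.48 higher on the log2 scale after dexamethasone than after mock treatment, against -0.13 to -0.04 in the other lines. Its second PRR37 probe set read 41.3 at 4 h after mock treatment, against 30.2 to 33.0.

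The empty-vector line stood apart in 3 values. PCL1 at 4 h was 0.50 higher on the log2 scale after dexamethasone than after mock treatment, against -0.25 to -0.12 in the other lines. PRR73 read 1071 at 4 h after mock treatment, against 1154 to 1177. PRR95 read 899 at 8 h after dexamethasone, against 508 to 616.5.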

How the results depend on the processing

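The results rest on 5 lines with 1 array per condition, and 1 of them, the untransformed line, departs from the other 4 in LHY and PCL1. Of 1810 values of single genes under the alternatives, 1716 kept their side of the threshold, 39 passed it newly, 55 lost it, and no call reversed.

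The counts of called probe sets moved more. For the change with time the block with line as a replicate gave 1072 calls after dexamethasone (228 without it) and 77 after mock treatment (13 without it). For the other comparisons the block gave 16 calls for CRL1 minus control lines in the change with time after dexamethasone (2 without it), 354 for dexamethasone against mock in the CRL1 lines at 4 h (143 without it), 3643 at 8 h (2095 without it) and 717 for CRL1 minus control lines in the dexamethasone response at 8 h (233 without it). Without the block, CRL1 against control lines after mock treatment gave the same count of 1. Besides the calls given with the results, the block changed none of the 6 genes' calls. Fitting only the arrays compared gave 1 call between times after dexamethasone, 4 after mock treatment, 1 for CRL1 minus control lines between times after dexamethasone, 231 for dexamethasone at 4 h in the CRL1 lines, and 1 at 4 h and 75 at 8 h for the difference of dexamethasone responses. Without the filter, 137 probe sets were called between times after dexamethasone. For the difference between treatments in the change with time, no offset and the stricter filter gave 1 call each (2 in the main setting). For CRL1 minus control lines between times after dexamethasone, no offset and the stricter filter gave 0 and quantile normalization gave 1. For the difference of dexamethasone responses at 4 h (3 calls), quantile normalization gave 1.

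Leaving out each line in turn gave 0 to 750 calls between times after dexamethasone and 0 to 76 after mock treatment, both highest without the untransformed line. The range was 0 to 2 for the difference between treatments in the change with time. For CRL1 minus control lines in that change it was 0 to 4 after dexamethasone and 0 to 9 after mock treatment. For dexamethasone in the CRL1 lines it was 12 to 226 at 4 h and 478 to 2771 at 8 h, and in the control lines 0 to 4 at 4 h. For the difference of dexamethasone responses, which was added after seeing the data, it was 0 to 6 at 4 h and 63 to 167 at 8 h. For CRL1 against control lines after mock treatment it was 1 to 3940, the highest without the empty-vector line. The cause was not tested. A lone control line was assumed to vary like the other groups.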
